A study of Mus musculus with 48 samples.

Results

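The genes described here are 7 markers of colonocytes, the absorptive cells that line the large intestine: Car1, Car4, Aqp8, Slc26a3, Krt20, Ceacam1 and Ceacam20. They were taken by symbol from a list chosen with earlier results of these data known, with no threshold on a measured value. All 7 were found among the 53465 genes of the count table and all 7 passed the filter on low counts that kept 15126 genes. The cells were sorted as enteroendocrine cells, the hormone-secreting cells of the gut epithelium.

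All mice were lean Neurod1-cre-eYFP males on a C57BL6 background, about 20 weeks old at surgery. In these mice, Cre driven by Neurod1 switches on a yellow fluorescent protein in cells that express, or once expressed, Neurod1. They were fed standard chow, apart from a liquid diet that began before surgery and lasted 1 week after it. Mice of the VSG group had about 70% of the stomach removed (vertical sleeve gastrectomy) and received vitamin B12, S_al mice had sham surgery with food ad libitum, and S_wm mice had sham surgery and were fed to match the body weight of the VSG group. Tissue was taken 6 weeks after surgery, after an overnight fast and about 15 min after 3 g/kg glucose. Fluorescent CD45- cells came from the top 5 cm of the small intestine (duodenum), the bottom 15 cm (ileum) and the colon with rectum. In each region there were 5 S_al, 5 S_wm and 6 VSG libraries, 48 libraries from 17 mice, with 4648651 to 17182463 counts each (median 6713018).

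Colonocytes absorb salt and water, exchange chloride for bicarbonate and take up short-chain fatty acids. Carbonic anhydrases supply the bicarbonate and protons for this exchange, Slc26a3 is the chloride and bicarbonate exchanger of the apical membrane, and Aqp8 is a water channel. Krt20 is a keratin of differentiated intestinal epithelium, and Ceacam1 and Ceacam20 are adhesion molecules of the carcinoembryonic antigen family found on the apical surface.

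The libraries held the defining markers of the sorted cell type, with Chga and Chgb at the highest levels. Summed over 8 enteroendocrine genes (Neurod1, Chga, Chgb, Scg2, Scg3, Pcsk1, Cpe and Insm1), the level was 29492 to 99812 CPM (counts scaled to library size, with TMM normalisation) in the colon, 34824 to 84391 CPM in the ileum and 12086 to 74646 CPM in the duodenum. Chga and Chgb made up most of this sum, with colon means of 21929 and 30204 CPM. Of the 8 genes, 5 were lower and 0 higher in colon than ileum, beside 25.4% and 23.8% of all tested genes. Neurod1 had means of 660, 412 and 255 CPM in duodenum, ileum and colon, and Scg2 1092, 412 and 31.6 CPM. Markers of other epithelial cells were present too, and their part in the members' levels was not tested. A sum over 8 goblet cell genes ran from 3177 to 14102 CPM in the colon, and a sum over 14 small-intestinal enterocyte genes ran from 5958 to 20561 CPM in the ileum and from 768 to 1302 CPM in the colon. Of 5 stromal genes, 4 had a mean under 1 CPM in every region. Of 5 immune genes, 3 were under 1 CPM in the colon. The sum over all 5 ran from 2.40 to 362 CPM in the colon. It ran from 162 to 1339 CPM in the ileum and reached 1845 CPM in the duodenum. Most of it was Cd74, with mean levels of 294, 772 and 40.8 CPM in duodenum, ileum and colon. Ptprc had the opposite order, at 1.72 CPM in ileum and 3.15 CPM in colon, without passing the test (edgeR, adjusted p = 0.0741). A sum over 5 Paneth cell genes ran from 1055 to 11117 CPM in the ileum and from 2.09 to 61.6 CPM in the colon. The duodenum library of S_wm mouse 27 stood apart, with the lowest enteroendocrine sum (12086 CPM) and the highest enterocyte sum (57975 CPM) of all 48 libraries. The ileum and colon libraries of S_al mouse 12 carried tissue labels that were crossed with the codes in their descriptions, and the tissue label was used. By that label the enterocyte sum was 15699 CPM in its ileum library and 1145 CPM in its colon library. Other libraries with the same tissue label lay on both sides of each value.

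The 250 bases before the RefSeq start site are shown for 3 members that differed in how they varied among the colon libraries: Aqp8 and Slc26a3 varied together, and Krt20 varied against them. RefSeq (GRCm38.p6) held promoters for 6 of the 7 members, all but Car1. Capitals mark matches, on either strand, to 6 motifs that were chosen after the sequences had been seen. The Aqp8 stretch is chr7:123462044-123462293 on the plus strand, that of Slc26a3 chr12:31437969-31438218 on the plus strand, and that of Krt20 chr11:99438154-99438403 on the minus strand. The Slc26a3 stretch lies inside the annotated gene interval (chr12:31390871-31473917), so its RefSeq start is not the one that opens that interval.
Aqp8: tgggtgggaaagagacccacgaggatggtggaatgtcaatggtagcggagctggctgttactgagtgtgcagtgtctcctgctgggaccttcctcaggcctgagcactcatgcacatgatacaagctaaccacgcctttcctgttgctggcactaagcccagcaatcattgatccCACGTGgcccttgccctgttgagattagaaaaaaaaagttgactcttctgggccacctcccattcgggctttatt
Slc26a3: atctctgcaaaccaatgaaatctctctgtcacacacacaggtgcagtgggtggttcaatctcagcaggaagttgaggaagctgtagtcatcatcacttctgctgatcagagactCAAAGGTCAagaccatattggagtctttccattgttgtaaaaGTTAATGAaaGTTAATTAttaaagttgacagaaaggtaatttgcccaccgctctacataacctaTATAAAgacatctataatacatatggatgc
Krt20: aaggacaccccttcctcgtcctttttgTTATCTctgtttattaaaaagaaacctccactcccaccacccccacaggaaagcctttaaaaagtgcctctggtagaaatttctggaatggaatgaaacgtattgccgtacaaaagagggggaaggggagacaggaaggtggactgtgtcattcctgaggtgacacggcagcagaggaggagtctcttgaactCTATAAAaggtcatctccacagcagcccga

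The Slc26a3 stretch held a match to the HNF4 motif, searched as CAAAGNNCA, whose letters were in 5.47% of 27025 promoters of this length. It also held a pair of matches to an HNF1 half-site, searched as GTTAATNA and present in 2.39% of promoters. A match to the TATA box, searched as TATAAA and present in 12.97% of promoters, began 30 bases before the start. Krt20 held a TATA box match that began 29 bases before the start. It overlapped a match on the other strand to the CDX motif, searched as TTTATNG and present in 10.2% of promoters. A GATA match in Krt20, searched as AGATAA, has letters that were in 10.3% of promoters. The Aqp8 stretch held a match to the E-box, searched as CACGTG and present in 6.05% of promoters, and to none of the other 5 motifs. These are matches of letters and not sites shown to be bound.

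Car1, a cytosolic carbonic anhydrase (chr3:14766216-14808368, minus strand), was nearly absent from the small-intestinal libraries and abundant in the colon. Its level was 0.691 ± 1.0 CPM (SD, n = 16) in duodenum, 1.51 ± 3.27 CPM in ileum and 859 ± 343 CPM in colon. The lowest colon library, at 301 CPM, lay above the highest small-intestinal library, at 13.5 CPM. The log2 fold change was 10.49 ± 0.47 (SE) for colon against duodenum (adjusted p = 4.44e-22, edgeR's quasi-likelihood test with Benjamini-Hochberg adjustment over all tested genes) and 9.51 ± 0.45 for colon against ileum (adjusted p = 4.92e-21).

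Aqp8 (chr7:123462291-123468004, plus strand) showed the same step at a lower level. No count was found in 11 of 16 ileum libraries and in 6 of 16 duodenum libraries, and the mean level was 0.104 ± 0.191 CPM and 0.549 ± 0.857 CPM, against 52.1 ± 25.9 CPM in the colon (n = 16 each). Colon libraries ran from 15.5 to 90.5 CPM and did not overlap with either small-intestinal region. The log2 fold change was 6.90 ± 0.36 for colon against duodenum (adjusted p = 1.09e-20) and 8.97 ± 0.45 for colon against ileum (adjusted p = 5.07e-21). Aqp8 was lower in the ileum than in the duodenum by a log2 of -2.07 ± 0.80 (adjusted p = 0.0415). That difference rests on 74 counts in the duodenum and 10 in the ileum, was in the same direction without the duodenum library of mouse 27 at -1.85 (adjusted p = 0.0986), and was -1.15 by limma voom when mouse was a random block (adjusted p = 0.423).

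Car4, a carbonic anhydrase anchored to the apical membrane (chr11:84957786-84966044, plus strand), rose from duodenum to ileum to colon, with 25.3 ± 17.7, 56.8 ± 25.1 and 149 ± 64.9 CPM (n = 16 each). Ranges overlapped between all regions. It was higher in the ileum than in the duodenum in 14 of 15 mice with both regions, and higher in the colon than in the ileum in 14 of 16 mice. The log2 fold change was 1.198 ± 0.240 for ileum against duodenum (adjusted p = 0.000115) and 1.34 ± 0.24 for colon against ileum (adjusted p = 7.69e-06).

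Slc26a3 (chr12:31390871-31473917, plus strand) was at 22.3 ± 16.4 CPM in the duodenum and 25.04 ± 11.3 CPM in the ileum, a log2 difference of 0.15 ± 0.24 that did not pass the test (adjusted p = 0.677). In the colon it was 85.7 ± 38.2 CPM, higher by a log2 of 1.76 ± 0.25 than in the ileum (adjusted p = 7.27e-08), in 15 of 16 mice.

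Ceacam1 (chr7:25461707-25477603, minus strand) rose along the gut from 206 ± 66.8 CPM in the duodenum to 378 ± 93.1 CPM in the ileum and 994 ± 306 CPM in the colon. It was higher in the ileum than in the duodenum in 15 of 15 mice (log2 0.85 ± 0.13, adjusted p = 6.64e-07) and higher in the colon than in the ileum in 16 of 16 mice (log2 1.38 ± 0.13, adjusted p = 9.69e-13). Its transcripts shared 29.6% of their 50-base windows with Ceacam2, so reads from those windows could not be assigned to 1 gene. Ceacam2 was at 1.33 ± 1.03 CPM in the colon, far under Ceacam1. Of the Car1 windows, 13.4% were also found in Gm5843.

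Krt20 and Ceacam20 were the members that were not higher in the colon than in both small-intestinal regions. Krt20 (chr11:99428403-99438150, minus strand) was abundant everywhere, with 1126 ± 528 CPM in duodenum, 1841 ± 461 CPM in ileum and 1531 ± 363 CPM in colon. It rose from duodenum to ileum by a log2 of 0.71 ± 0.13 (adjusted p = 3.71e-05). It was also higher in the colon than in the duodenum, by 0.45 ± 0.13 (adjusted p = 0.00363), in 13 of 15 mice. The difference between colon and ileum, -0.26 ± 0.13, did not pass the test (adjusted p = 0.109). Without S_wm mouse 27 that difference was -0.25 and passed (adjusted p = 0.0390).

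Ceacam20 (chr7:19965412-19991104, plus strand) had 73.8 ± 19.9 CPM in duodenum, 81.5 ± 22.4 CPM in ileum and 60.8 ± 14.8 CPM in colon. The colon level was below the ileum level by a log2 of -0.44 ± 0.13 (adjusted p = 0.00367), and 3 of 16 mice had the higher value in the colon. Against the duodenum the log2 difference was -0.30 ± 0.13 with adjusted p = 0.0442, and this call was lost without the duodenum library of mouse 27, at -0.20 (adjusted p = 0.167).

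**Figure D1:**
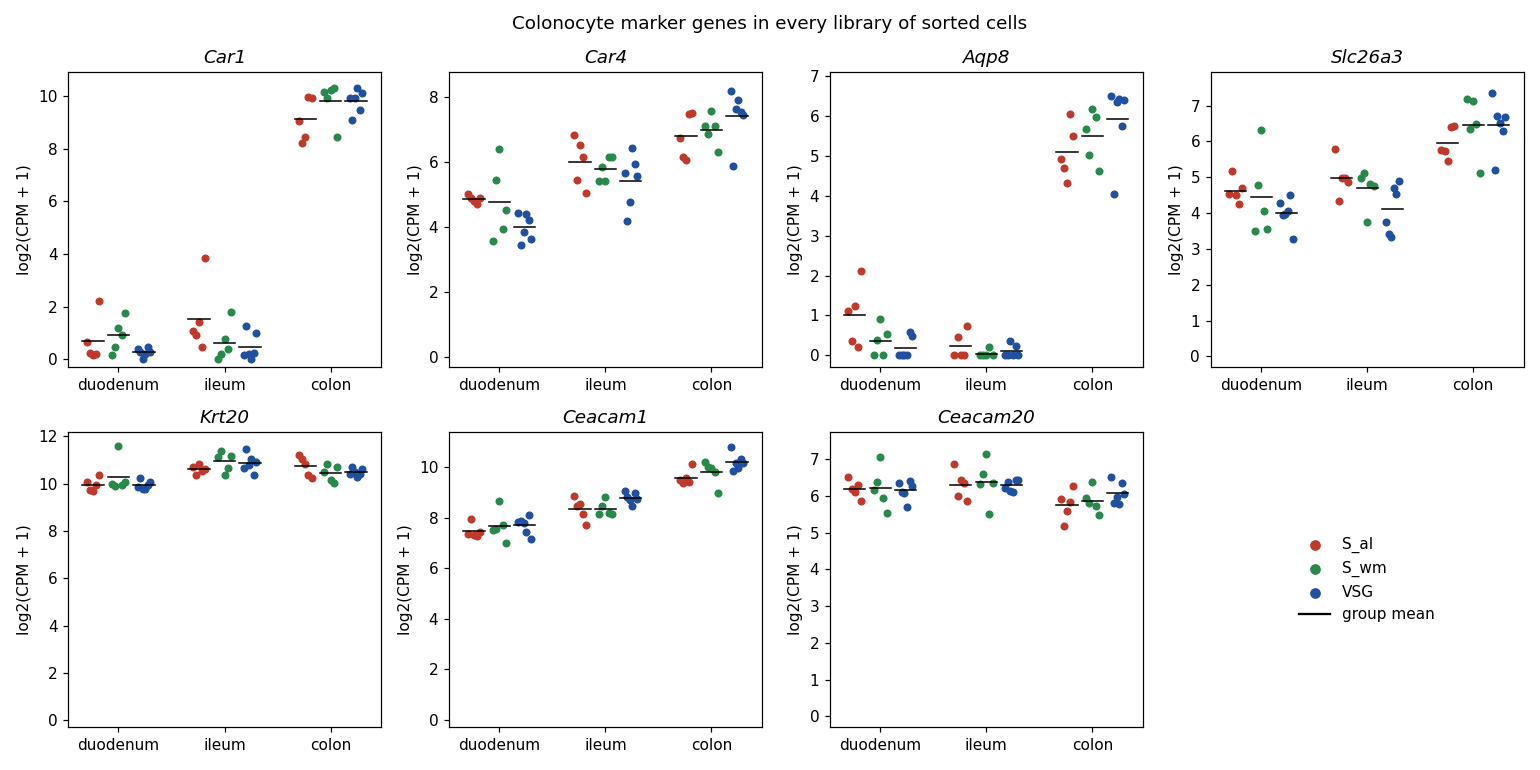
Level of each of the 7 genes as log2(CPM + 1) on the vertical axis in all 48 libraries, by region and coloured by surgery group, with black lines at group means. Car1 and Aqp8 colon libraries sit above all small-intestinal libraries, while the Krt20 and Ceacam20 libraries of the 3 regions overlap.

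Counted together, 3 members were higher and 1 lower in the ileum than in the duodenum, beside 17.2% of all tested genes higher and 16.6% lower. In the colon against the duodenum, 6 members were higher and 1 lower (26.8% and 28.3% of all genes), and against the ileum 5 were higher and 1 lower (23.8% and 25.4%). The median log2 fold change over the members was 2.24 for colon against duodenum and 1.38 for colon against ileum, where the medians over all tested genes were -0.01 and -0.01. The colon range lay wholly above the duodenum range for 3 members, Car1, Aqp8 and Ceacam1 (4.76% of all tested genes), and wholly above the ileum range for Car1 and Aqp8 (3.68% of all genes). Bulk RNA of this kind does not tell more cells of a type from more RNA per cell.

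**Figure D2:**
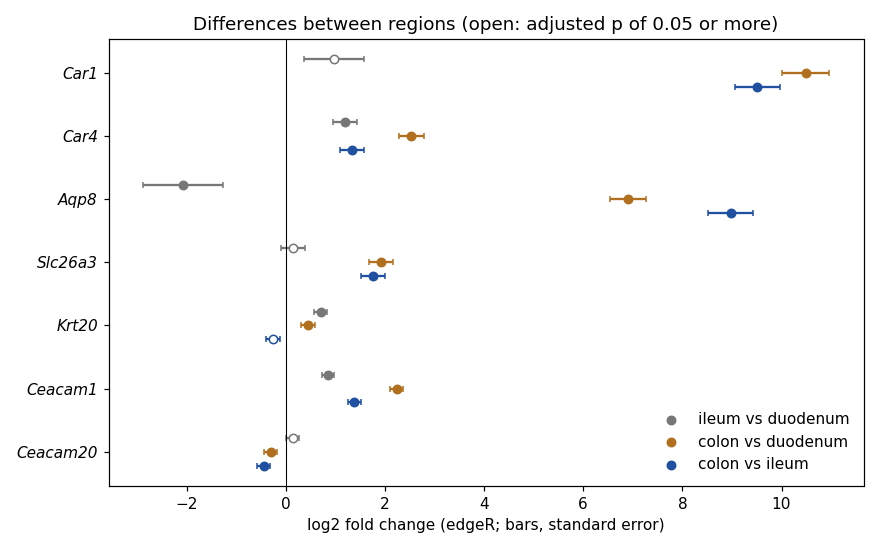
Log2 fold changes between regions on the horizontal axis for the 7 genes, with standard errors as bars, filled where the adjusted p was under 0.05 and open otherwise. Car1 and Aqp8 differ between colon and small intestine by log2 values of 6.90 to 10.49, and Ceacam20 lies below 0 in both colon comparisons.

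The library index, a sequence tag on the adapter, was unevenly spread over regions: the tag D502 was on 12 of 16 duodenum libraries and on no other region, and D504 was on 11 of 16 colon libraries. Differences within a tag were computed after seeing the data. Within tag D501, the mean log2(CPM + 1) of 7 ileum libraries minus that of 4 duodenum libraries was 0.56 for Krt20 and 0.50 for Ceacam1, but 0.12 for Car4 and -0.69 for Slc26a3. These 4 duodenum libraries included that of S_wm mouse 27, which had the highest duodenum level of each of these genes. It was at 3045 CPM for Krt20, 404 CPM for Ceacam1, 83.1 CPM for Car4 and 78.6 CPM for Slc26a3. Differences within the tag without that library were not computed. Within tag D503, 4 colon libraries exceeded 8 ileum libraries by 8.78 for Car1, 5.65 for Aqp8, 1.91 for Slc26a3, 1.5 for Car4 and 1.41 for Ceacam1. Within tag D504, 11 colon libraries against a single ileum library gave 8.56 for Car1, 5.50 for Aqp8 and 1.02 for Ceacam1, but 0.51 for Slc26a3 and 0.19 for Car4. Within tag D501, a single colon library against 7 ileum libraries gave 8.21, 4.78, 1.13, 1.28 and 1.33 for the same genes. Both single libraries came from S_al mouse 12, whose tissue labels were crossed with the codes in the descriptions. Krt20 gave -0.17 in D503, -0.20 in D504 and 0.23 in D501, and Ceacam20 gave -0.23, -1.02 and -0.35.

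With the tag as a covariate, 0 members were called between ileum and duodenum, where 11.3% of all genes were called against 33.8% without it. D501 was the only tag that duodenum libraries shared with another region, on 4 of them, among them that of S_wm mouse 27. The log2 fold changes of Car4, Ceacam1 and Krt20 shrank to 0.34, 0.19 and 0.33 (adjusted p = 0.692, 0.660 and 0.346), and that of Aqp8 was -3.04 (adjusted p = 0.0648). Between colon and duodenum 4 members were called, beside 4236 of the 15126 tested genes, against 8322 without the tag. Slc26a3 and Krt20 shrank to 0.90 and 0.19 (adjusted p = 0.166 and 0.613), and Ceacam20 was at -0.70 (adjusted p = 0.0516). Between colon and ileum 6 members were called with the tag and 6 without it, beside 37.8% and 49.2% of all genes.

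Levels of different genes were compared per kilobase of exon, with all annotated exons of a gene merged. This length was 6.369 kb for Slc26a3 and 5.806 kb for Ceacam1, and the order depends on it. In the colon the order was Krt20 (794 ± 188 CPM per kb), Car1 (689 ± 275), Ceacam1 (171 ± 52.7), Car4 (75.6 ± 33.0), Aqp8 (32.9 ± 16.4), Ceacam20 (21.1 ± 5.13) and Slc26a3 (13.5 ± 6.00). Krt20 was above Car1 in 7 of 16 colon libraries, so these neighbours did not differ beyond their spread. Aqp8 exceeded Ceacam20 in 12 of 16 libraries. In the duodenum Krt20 led as well, at 584 ± 274 CPM per kb, followed by Ceacam1 (35.5 ± 11.5) and Ceacam20 (25.6 ± 6.90), and Car1 and Aqp8 came last. Car4 and Ceacam20 were neighbours in the ileum, with Car4 above in 7 of 16 libraries.

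Other transport genes of the colonic epithelium were followed on lists chosen with earlier results of these data known. Of 13 ion transport genes, 11 were higher in the colon than in the ileum and 2 did not pass the test, with a median log2 fold change of 2.58. Over all tested genes 23.8% were higher and 25.4% lower, which holds beside each list count of colon against ileum that follows. Scnn1b, a subunit of the epithelial sodium channel, was at 9.19 ± 2.70 CPM in the colon and 0.0760 ± 0.207 CPM in the ileum, and Best2, a bestrophin channel, at 13.3 ± 6.99 and 0.184 ± 0.339 CPM. Car2, another cytosolic carbonic anhydrase, had 484 ± 139 CPM in colon and 3.38 ± 2.67 CPM in ileum (log2 7.20 ± 0.31, adjusted p = 6.43e-23).

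Of 13 other colonocyte genes, 6 were higher and 6 lower in colon than ileum. Slc37a2, Cyp2c55 and Selenbp1 were higher by log2 values of 5.96 ± 0.50, 5.28 ± 0.41 and 4.47 ± 0.21. Guca2b, which encodes uroguanylin, was lower by -3.37 ± 0.32, Tmigd1 by -1.89 ± 0.36 and Vil1, the villin of the brush border, by -1.38 ± 0.15.

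Within the members' own gene families the direction was mixed. Of 10 tested carbonic anhydrases, Car1 and Car4 included, 5 were higher and 3 lower in colon than ileum, with Car11 (1.63 ± 0.36) and Car12 (1.03 ± 0.16) among the higher and Car6 (-1.81 ± 0.72), Car8 (-1.195 ± 0.153) and Car13 (-0.79 ± 0.26) the lower. Of 7 aquaporins, 2 were higher, Aqp8 and Aqp4 (log2 2.04 ± 0.18), and 5 were lower, with Aqp3 lower by -4.53 ± 0.59, Aqp7 by -3.78 ± 0.56 and Aqp9 by -1.16 ± 0.42. Of 7 Slc26 exchangers, 2 were higher, Slc26a3 and Slc26a2 (0.78 ± 0.11), and 2 lower, Slc26a6 (-5.66 ± 0.45) and Slc26a4 (-1.63 ± 0.17). Of 6 simple keratins, 4 were higher, among them Krt19 (0.79 ± 0.09), Krt23 (0.76 ± 0.21) and Krt8 (0.39 ± 0.10), and Krt7 was lower (-0.44 ± 0.15). Of 5 tested Ceacam genes, 2 were higher, Ceacam1 and Ceacam2 (1.04 ± 0.40), and 2 lower, Ceacam20 and Ceacam18 (-2.34 ± 0.18).

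No member passed the test in any of the 12 comparisons between surgery groups or in the interaction of surgery and region, by edgeR, DESeq2 or limma voom. Over all tested genes by edgeR, VSG against S_al gave 0% called in each region and over the mean of regions. VSG against S_wm gave 0.245% over the mean of regions, 0.225% in duodenum, 0.0463% in ileum and 0.0595% in colon. S_wm against S_al gave 0.0529% over the mean of regions, 0% in the duodenum and ileum and 0.0132% in the colon, and the interaction gave 0%. DESeq2 called more genes in 11 of these 13 comparisons, among them 26 for VSG against S_al over the mean of regions, 216 for VSG against S_wm in the duodenum and 10 for the interaction, and limma voom called from 0 to 9 genes per comparison, 1 of them for VSG against S_al in the colon. At an unadjusted p under 0.05, edgeR gave from 0 to 3 members per surgery comparison, where 2.45% to 9.92% of all tested genes passed, and 3 members for the interaction (Aqp8, Car1 and Car4), where 4.90% did. For VSG against S_al, log2 fold changes in duodenum, ileum and colon were -2.79 ± 0.84, -1.33 ± 1.51 and 0.90 ± 0.41 for Aqp8. They were -1.92 ± 1.15, -2.48 ± 0.88 and 0.57 ± 0.49 for Car1, and -0.86 ± 0.41, -0.57 ± 0.40 and 0.66 ± 0.40 for Car4. Car1 and Aqp8 were nearly absent from the small-intestinal libraries. S_al mouse 32 alone held 30 of the 40 Car1 counts of the S_al duodenum libraries and 61 of the 85 of the S_al ileum libraries. For Aqp8 it held 27 of the 54 counts of the S_al duodenum libraries. The small-intestinal values of these 2 genes against S_al thus rest largely on that mouse.

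In the colon the members' means were mostly higher after VSG than in S_al, within the spread of the groups. Aqp8 was at 29.6, 25.1, 18.98, 65.3 and 44.6 CPM in the S_al mice, at 50.6, 31.5, 71.2, 62.2 and 23.8 CPM in the S_wm mice and at 15.5 to 90.5 CPM (median 82.5) in the VSG mice. The VSG range enclosed both sham groups: mouse 18 was at 15.5 CPM and the other 5 at 53.3 CPM or more. The log2 fold change for VSG against S_al was 0.90 ± 0.41 (adjusted p = 0.777), and for VSG against S_wm 0.52 ± 0.41 (adjusted p = 1).

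Ceacam1 was at 716, 661, 763, 678 and 1131 CPM in the S_al mice, at 1182, 1021, 1004, 910 and 513 CPM in the S_wm mice and at 929 to 1781 CPM (median 1156) in the VSG mice. In S_al, 4 of 5 mice were below the lowest VSG mouse, and the fifth was inside the VSG range. The log2 fold change was 0.63 ± 0.22 for VSG against S_al (adjusted p = 0.702) and 0.40 ± 0.22 for VSG against S_wm (adjusted p = 1).

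Car4 was at 105, 69.5, 65.9, 176 and 179 CPM in the S_al mice and at 58.0 to 285 CPM (median 190) in the VSG mice, a log2 fold change of 0.66 ± 0.40 (adjusted p = 0.788). Car1 had a log2 fold change of 0.57 ± 0.49 (adjusted p = 0.842), Slc26a3 of 0.58 ± 0.40 (adjusted p = 0.807) and Ceacam20 of 0.31 ± 0.22 (adjusted p = 0.814). Krt20 was the member with the opposite sign, at -0.30 ± 0.23 (adjusted p = 0.822). Against S_wm in the colon, the log2 fold changes were 0.53 ± 0.40 for Car4, -0.09 ± 0.49 for Car1, -0.04 ± 0.40 for Slc26a3, 0.22 ± 0.22 for Ceacam20 and 0.02 ± 0.23 for Krt20, each with adjusted p = 1. Both comparisons share the VSG libraries.

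**Figure D3:**
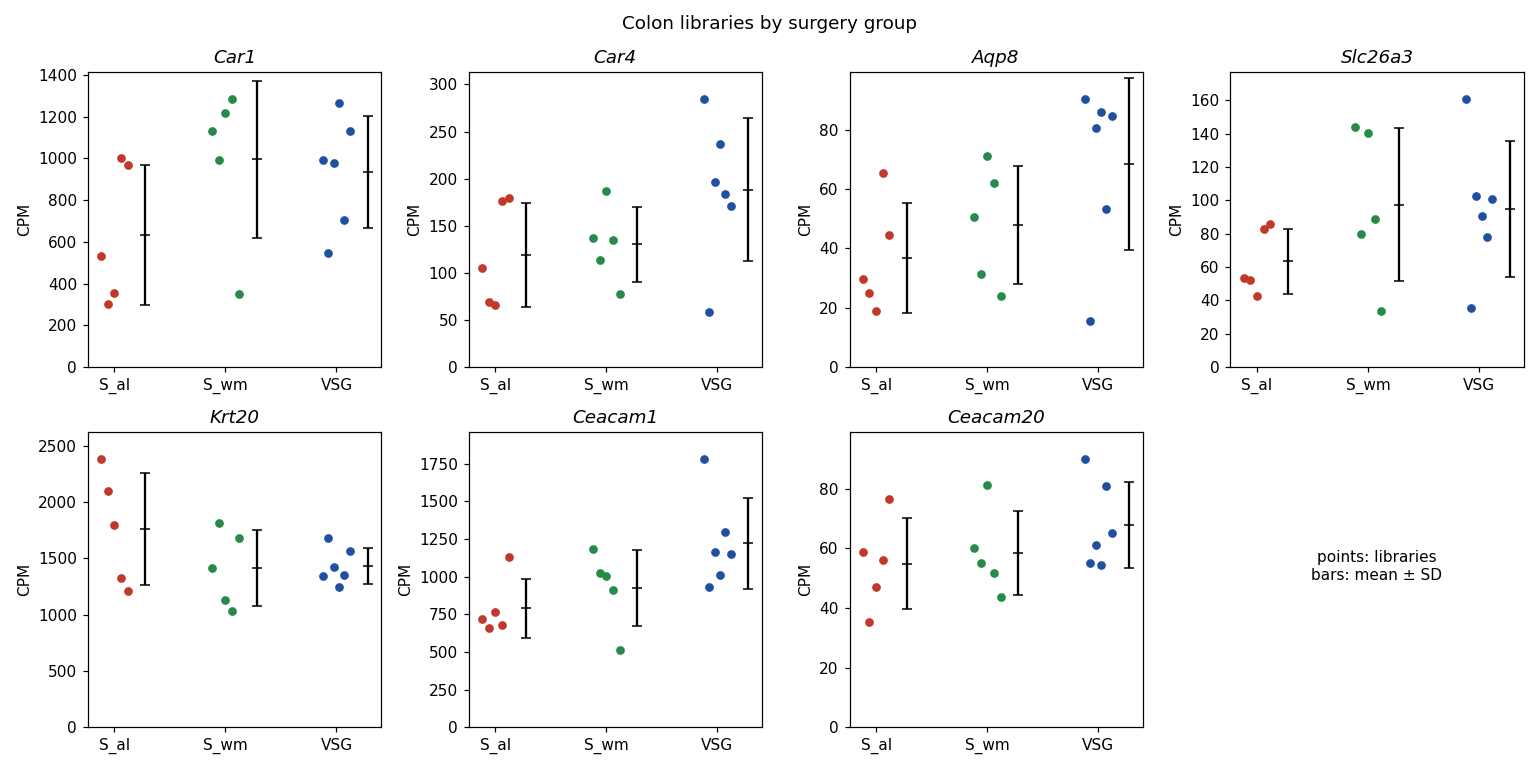
CPM on the vertical axis in each of the 16 colon libraries by surgery group, with the mean and SD as black bars. The groups overlap for all 7 genes, and VSG mouse 18 is the low VSG point for Aqp8, at 15.5 CPM.

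The enteroendocrine sum overlapped between these groups in the colon, and 0 of its 8 genes passed the test in any of the 3 colon comparisons. It was 38501 to 99812 CPM (median 65292) in S_al, 29492 to 71989 CPM (median 45296) in S_wm and 36801 to 66658 CPM (median 47106) in VSG. The goblet sum had medians of 8782, 8578 and 10573 CPM. Their part in the surgery values was not tested.

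The members did not vary independently among the 16 colon libraries. Over the 21 pairs of members, 20 correlations of log2(CPM + 1) passed 0.05 after Benjamini-Hochberg adjustment (permutation test with 100000 resamples, 2-sided) by Pearson's r, and 17 by Spearman's rho. The share that passes over pairs of all tested genes was not computed, so these counts are not shown to be particular to the members. The closest pair was Car4 and Aqp8, with Pearson's r = 0.95 and Spearman's rho = 0.91 (permutation p = 1e-05, the smallest they can give, and 2e-05), and r = 0.91 without the 2 libraries farthest from the median of Car4. Car1 correlated with Slc26a3 at r = 0.83 and rho = 0.77 (permutation p = 0.00013 and 0.00068; adjusted 0.000682 and 0.00357), and r = 0.81 without the 2 farthest libraries.

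Krt20 ran against the other members. With Car1 it had r = -0.74 and rho = -0.75 (permutation p = 0.0014 and 0.00131; adjusted 0.00294 and 0.00459), and r = -0.70 without the 2 farthest libraries. With Ceacam1 it had r = -0.46 and rho = -0.33, the pair that did not pass by Pearson's r (permutation p = 0.0755 and 0.213), and r = -0.27 without the 2 farthest. By Spearman's rho, Krt20 with Ceacam20 (adjusted 0.114), Car1 with Ceacam1 (adjusted 0.137) and Car1 with Ceacam20 (adjusted 0.203) did not pass either. Ceacam1 and Ceacam20, which sit on the same chromosome, correlated at r = 0.79 and rho = 0.76 (permutation p = 0.0003 and 0.00097; adjusted 0.00105 and 0.00407), and r = 0.69 without the 2 farthest libraries. The relation of Car1 to Ceacam1, r = 0.64, fell to 0.38 without the 2 libraries farthest from the median of Car1, and that to Ceacam20, r = 0.61, fell to 0.29, so both rest on those libraries. After subtraction of the surgery means 17 of 21 pairs passed, and among the 11 libraries with tag D504, 10 pairs did.

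**Figure D4:**
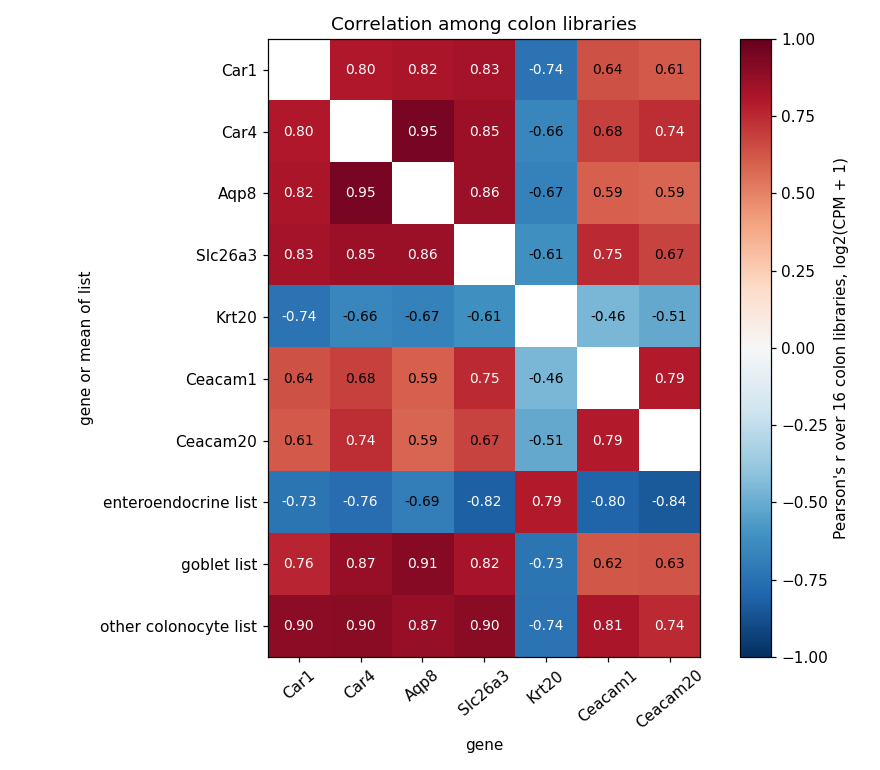
Pearson's r over the 16 colon libraries between the members (columns) and the members and 3 marker lists (rows), on log2(CPM + 1) values. Krt20 has the opposite sign to the other members with each of the 3 lists, r = 0.79 with the enteroendocrine list against values of -0.69 to -0.84 for the others.

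Each member was then set against the mean log2(CPM + 1) of other marker lists, a comparison chosen after seeing the data, with 21 relations in all. All 21 passed 0.05 after adjustment for Pearson's r, and 20 for Spearman's rho, the exception being Ceacam1 with the goblet list. The share of all tested genes that pass with these lists was not computed. With the 8 enteroendocrine genes, Slc26a3 had r = -0.82 and rho = -0.81 (permutation p = 0.00023 and 0.00029) and r = -0.73 without the 2 farthest libraries. Ceacam20 had r = -0.84 and rho = -0.78 (permutation p = 8e-05 and 0.00071), and r = -0.77 without the 2 farthest. Krt20 had r = 0.79 and rho = 0.81 (permutation p = 0.00032 and 0.00037) and r = 0.84 without the 2 farthest. With the 13 other colonocyte genes, Car4 had r = 0.90 and rho = 0.85 (permutation p = 1e-05 and 8e-05), and Krt20 r = -0.74 and rho = -0.74 (permutation p = 0.00105 and 0.00163), and without the 2 farthest libraries r = 0.91 and -0.75. With the goblet genes, Aqp8 had r = 0.91 and rho = 0.85 (permutation p = 2e-05 and 6e-05), and r = 0.89 without the 2 farthest libraries. Levels are shares of a library, and the part of this in these relations was not tested.

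**Figure D5:**
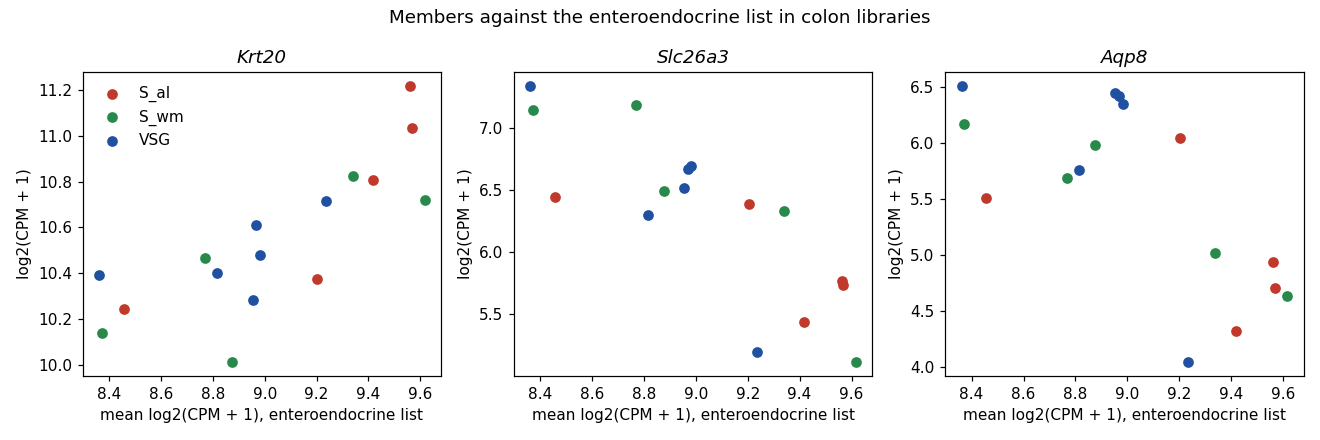
Each of the 16 colon libraries, with the mean log2(CPM + 1) of the 8 enteroendocrine genes on the horizontal axis and log2(CPM + 1) of Krt20, Slc26a3 or Aqp8 on the vertical axis, coloured by surgery group. Krt20 rises with the list (r = 0.79) and Slc26a3 and Aqp8 fall (r = -0.82 and -0.69).

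In the small intestine the same comparison, also chosen after seeing the data, gave 4 relations of 14 that passed after adjustment by Pearson's r (Car4, Slc26a3 and Ceacam1 in the duodenum and Krt20 in the ileum) and 0 by Spearman's rho. Here too the share over all tested genes was not computed. In the ileum Krt20 had r = 0.60 and rho = 0.62 with the enteroendocrine list (permutation p = 0.0132 and 0.0117; adjusted 0.0461 and 0.164), and r = 0.51 without the 2 farthest libraries. In the duodenum Slc26a3 had r = -0.80 and rho = -0.49 (permutation p = 0.00119 and 0.0543), which fell to r = -0.40 without the 2 farthest libraries. Without them Car4 fell from r = -0.69 to -0.07 and Ceacam1 from r = -0.72 to -0.28, so these duodenum values rest on those libraries. Krt20 in the duodenum had r = -0.86 but rho = 0.14, and r = 0.21 without them, so that value rests on those libraries.

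The genes most like each member among colon libraries were found by Pearson's r of log2(CPM + 1) after subtraction of surgery means, over 16 libraries and 10382 genes with a mean of at least 5 CPM. The values given are the largest of 10382 for each member. How high the largest values run for other genes was not computed, so they are not shown to be particular to the members. For Car1 they were Ugdh (0.97), Cyp2c65 (0.94) and Acads (0.93). Aqp8 was closest to Zg16, a lectin of goblet cells (0.93), then Rab1a (0.91) and Pttg1ip (0.90), and Car4 to Litaf (0.95), Dazap2 (0.94) and Pttg1ip (0.94). Slc26a3 was closest to Chp2 (0.94), Tcea3 (0.93) and the chloride channel gene Clcn2 (0.93).

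Krt20 was closest to Crybg1 (0.96) and then to Chga (0.95) and Chgb (0.95), which encode the granins of hormone granules and had means of 21929 and 30204 CPM in the colon. Ceacam1 was closest to Iqgap2 (0.95), the tight junction gene Tjp3 (0.94) and Nlrp6 (0.93), and Ceacam20 to Unc5b (0.91), Crat (0.91) and Myo1d (0.90).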

How the data were processed

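RNA from sorted cells (2 ng per library, SMARTer stranded pico kit, single-end reads of 50 bases, HiSeq 4000) was aligned to GRCm38 by the authors with STAR 2.5.1 and the Ensembl 91 annotation, and the deposited values are raw counts per gene. CASAVA is also named in the submitters' processing notes. The strand setting of the counting is not given in the sources used here. Counts were tested with edgeR 4.0.16 (R 4.3.3): TMM, filterByExpr, a robust quasi-likelihood fit of the 9 groups, and Benjamini-Hochberg adjustment over 15126 genes at 0.05. DESeq2 1.42.0 and limma 3.58.1 (voom) were alternatives. The tests were checked on simulated counts drawn independently for each library, so that check did not cover effects of mouse or tag. CPM values are TMM-scaled, logs use a pseudocount of 1 CPM, and exon lengths are from GENCODE M21. Mouse numbers mark the same animal across regions. Over 46 pairs of libraries from 1 mouse, the correlation of deviations from group means had a median of 0.111 (-0.122 to 0.389). The study's model has no mouse term, so neither had the main fit. The members and gene lists were chosen with earlier results of these data known. Named genes are the 7 members, up to 3 genes per list and direction with the largest fold change in colon against ileum, and the 3 genes most correlated with each member. P-values of the fits measure the spread between libraries within groups, each library of a group being from a different mouse. For comparisons between regions, the main fit treats libraries of the same mouse as independent.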

Additional observations from a re-analysis of the deposited data

Results flagged for a closer look

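Over the 63 combinations of member and group, 10 single libraries lay far from the rest of their group on the log2(CPM + 1) scale by Dixon's test, which flags about 1 in 20 groups by chance. S_al mouse 32 was high for Car1 in the duodenum (3.70 CPM, others 0.122 to 0.586) and in the ileum (13.5 CPM, others 0.374 to 1.67), and for Ceacam1 in the colon (1131 CPM, others 661 to 763). VSG mouse 18 was low in the colon for Car4 (58.0 CPM, others 171 to 285) and Aqp8 (15.5 CPM, others 53.3 to 90.5). S_wm mouse 31 was low in the colon for Car1 (348 CPM, others 991 to 1286). S_wm mouse 27 was high for Krt20 in the duodenum (3045 CPM, others 962 to 1060) and low for Slc26a3 in the ileum (12.49 CPM, others 26.2 to 33.95). S_al mouse 13 was high for Ceacam1 in the duodenum (246 CPM, others 155 to 172). S_wm mouse 29 was high for Aqp8 in the ileum (0.160 CPM), which is 1 count where the others had 0.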

How the results depend on the processing

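Counts of members called kept to within 1.5 times the main count in all alternatives but the library tag as a covariate, which gave 0 called for ileum against duodenum and 4 for colon against duodenum. With that covariate Slc26a3 (-0.77) and Ceacam20 (-0.24) changed sign between ileum and duodenum, without passing the test. Since the tag is largely nested in region, the tag and the region cannot be told apart for most libraries. The paired fit with the mouse as a fixed block called 4, 7 and 6 members in the 3 region comparisons, as without the block, and that block changed no call. Leaving out each mouse gave 17 to 21 correlated pairs, and 10 pairs passed among tag D504 libraries. Aqp8 between ileum and duodenum lost its call when any 1 of 6 mice was left out (-2.64 to -1.77 over 17 fits), and Ceacam20 between colon and duodenum when any 1 of 11 was (-0.38 to -0.24). DESeq2 gave adjusted p = 0.0504 for Ceacam20. In VSG against S_wm in the colon, leaving out single mice turned the sign of Car1 (-0.31 to 0.029), Slc26a3 (-0.26 to 0.15) and Krt20 (-0.074 to 0.13), none of which passed the test. The fit of only the libraries compared gave no value for Aqp8 between ileum and duodenum, where its low counts did not pass the filter.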
